A study of Homo sapiens with 7 samples.

Results

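The constructs described here belong to 5 regions of the human genome that overlap or lie beside genes known mainly from nerve cells and their sheaths: UNC13A, PTPRN2, PMP22, OPCML and NECAB1. They were found in the authors' deposited tables by the chromosome and end coordinate in each construct's name, which gave 6 of 358 wild-type constructs and 16 of 1025 mutant constructs, in 5 of 380 regions. The study used lentiMPRA, a massively parallel reporter assay delivered by lentivirus, in which each candidate regulatory sequence is tied to barcodes and its activity is the abundance of those barcodes in RNA relative to genomic DNA (gDNA). All libraries came from C4-2B, an established human prostate cancer cell line of the LNCaP lineage, and 3 gDNA and 3 RNA libraries were made from cells collected 48 hours after transduction, beside 1 library that linked barcodes to sequences. The tables compare wild-type with scrambled sequence and mutant with wild-type sequence, and no untreated, second-genotype or second-cell-line group was part of the design. The regions were selected on their estimates and calls in these same tables, so these values are a description and carry no test beyond the one the authors' model attached to each construct.

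The genes share a setting more than a pathway. UNC13A encodes Munc13-1, which primes synaptic vesicles for fusion at the presynaptic membrane. PTPRN2 encodes phogrin, a receptor-type tyrosine phosphatase family member of dense-core secretory vesicles in neurons and endocrine cells. PMP22 encodes a membrane protein of the compact myelin that Schwann cells wrap around peripheral axons, and its duplication causes an inherited demyelinating neuropathy. OPCML encodes a cell adhesion molecule of the IgLON family, anchored to the neuronal surface by a lipid, and NECAB1 encodes a neuronal calcium-binding protein with an EF hand. A reporter assay reads the activity of the cloned sequence in the host cell, here a prostate epithelial cancer line, and does not read these genes. The label is therefore one of position: PMP22 is a gene of glial myelin rather than of neurons, and nothing in the tables ties a region to the gene that names it.

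In hg38 the UNC13A region is chr19:17613723-17613857, inside the gene body (17601336 to 17688354) and 74497 bp from the transcription start that RefSeq lists for this minus-strand gene. The PTPRN2 region is chr7:157854875-157855107, inside the gene body (157539056 to 158587823) and also inside PTPRN2-AS1, a long non-coding RNA gene (157854585 to 157866092). For PMP22 the region is chr17:15244517-15246939, inside the gene body (15229779 to 15265326) and 13881 bp from the nearest of 3 starts listed on the minus strand. The OPCML region is chr11:132744149-132745792, inside a long gene body (132414981 to 133532501) and 198044 bp from the nearer of its listed starts. The NECAB1 region is chr8:90786551-90791250, which ends 525 bp from the gene body (90791775 to 90959393) and lies within LOC105375633, a long non-coding RNA gene (90690414 to 90792168). Whether a region is exonic, intronic or part of a UTR was not resolved. The regions differ in size, with 135 bp at UNC13A and 233 bp at PTPRN2, both under the lower quartile of 284 bp over all 380 regions, 1644 bp at OPCML, and 2423 bp at PMP22 and 4700 bp at NECAB1, both above the upper quartile of 1889.5 bp.

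Each estimate is taken as a log odds ratio (natural log, RNA relative to gDNA), so that 0 means equal activity, and the ± beside it is the standard error that the estimate and its z value imply. A construct is called higher or lower where the authors' adjusted p (q-value) was under 0.05. Within a region, tested sites are lettered in order of rising coordinate. The authors deposited a single estimate per construct in each comparison, so no value per library exists here and the spread between the 3 replicates is not known. How the replicates entered the authors' model is not given. Calls are common in these tables: 62.3% of all wild-type constructs and 56.6% of all mutants were called.

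Mutants at UNC13A were all called lower than wild-type sequence, and 1 of them had a far lower estimate than the others. The C-to-A mutant at site c stood at -1.02 ± 0.12 in the authors' deposited table, an odds ratio of 0.362 with a 95% interval of 0.288 to 0.454 (adjusted p = 7.43e-17). The authors' deposited table placed the G-to-C mutants at sites a and b at -0.17 ± 0.07 and -0.26 ± 0.11, odds ratios of 0.843 and 0.774 (adjusted p = 0.0201 and 0.0367). The interval of site c, from -1.25 to -0.79, overlapped neither of theirs, although site c lies only 13 bp from site b, while sites a and b, 61 bp apart, carry the same kind of change and had intervals that overlapped. Over all 1025 mutants of the authors' deposited table, the size of the z value at site c ranked 36, the highest rank among the mutants of the 5 regions. The whole table holds 37 G-to-C mutants, of which 8 were called higher and 16 lower, and 26 C-to-A mutants, of which 7 were called higher and 5 lower. The deposited comparison of wild-type with scrambled sequence lists no construct of the UNC13A region, so the level from which the mutants fell is not known.

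At PTPRN2 the direction was the opposite and most changes were small. The authors' deposited table called 4 of 5 mutants higher than wild-type sequence and 0 lower. No PTPRN2 construct is listed in the comparison of wild-type with scrambled sequence. The A-to-G mutant at site a stood at 0.35 ± 0.07 in the authors' deposited table, 1.42-fold higher odds (adjusted p = 4.21e-06). The A-to-G mutants at sites c and e reached only 0.096 ± 0.027 and 0.095 ± 0.036 in the authors' deposited table, 1.10-fold each (adjusted p = 0.00107 and 0.0179). A T-to-G mutant at site d stood at 0.073 ± 0.025 in the authors' deposited table, 1.08-fold (adjusted p = 0.00771). The T-to-G mutant at site b, at -0.06 ± 0.12, was the only one not called (adjusted p = 0.702 in the authors' deposited table). By the deposited errors, site a was set apart from sites c, d and e, whose intervals all ended at or below 0.166. The interval of site a began at 0.209. Whether those errors cover the spread between replicates was not tested.

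The calls at PTPRN2 sites c, d and e went with high precision rather than size. The standard errors at sites c, d and e were among the smallest of the authors' deposited mutant table, ranking 26, 18 and 42 of 1025 from the smallest, against a median of 0.12 over the table. Only 14 of the 580 called mutants had an estimate under 0.1 in size, and 3 of those 14 were these PTPRN2 sites. At site b the standard error was 0.12, close to the table's median, and its interval of -0.30 to 0.18 covers every value found at sites c, d and e. The absence of a call at site b therefore does not show that it differs from them.

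The tested sites of PTPRN2 also repeat in their layout. Sites a and b are an A-to-G and a T-to-G change 13 bp apart, and sites c and d are again an A-to-G and a T-to-G change 13 bp apart, displaced by 111 bp. Of 92 regions with 4 or more mutants, 2 held such a repeated pair of changes at equal spacing, the PTPRN2 region being 1 of them. The matched A-to-G changes had unlike estimates in the authors' deposited table, 0.35 ± 0.07 at site a and 0.096 ± 0.027 at site c. Their intervals did not overlap, which shows a difference only if the deposited errors are right, and that was not tested. For the matched T-to-G changes, at -0.06 ± 0.12 at site b and 0.073 ± 0.025 at site d, the intervals overlapped, so a difference between them is not shown. Whether the underlying sequence is repeated there was not tested, since no sequence of the region was used.

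The PMP22 region held wild-type constructs with estimates of opposite sign against scrambled sequence, and both of its mutants were called higher than wild-type sequence. What scrambled sequence each site was set against is not given in the sources used here. Against scrambled sequence, the wild-type counterpart of site a stood at 0.63 ± 0.16 in the authors' deposited table, 1.89-fold higher odds (adjusted p = 0.000311). Its neighbour at site b, 163 bp away, stood at -2.83 ± 0.65 in the authors' deposited table, an odds ratio of 0.0588, with a 95% interval of 0.0166 to 0.209 (adjusted p = 4.73e-05). That value was the fifth from the lowest among the 358 wild-type estimates, of which 3, more than 10 below 0, had errors larger than themselves. The wild-type error at site b was among the largest, ranking 346 of 358 from the smallest. The A-to-G mutant at site b stood at 2.36 ± 0.68 over its wild-type sequence in the authors' deposited table, 10.6-fold higher odds with an interval of 2.76- to 40.4-fold (adjusted p = 0.00151). At site a the T-to-G mutant reached 0.24 ± 0.09 in the authors' deposited table, 1.27-fold (adjusted p = 0.0147).

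Setting the tables in a row gives an implied activity of each PMP22 mutant against scrambled sequence, assuming that a construct's wild-type reads are the same reads in each table. Estimates from the authors' deposited tables sum to -0.48 at site b, with a standard error of at most 0.94. That bound takes the tables as independent and the deposited errors as right. Shared wild-type reads would make the error smaller by an unknown amount, so whether this mutant differs from scrambled sequence cannot be told. For site a the sum is 0.87, with a standard error of at most 0.19, or 2.40-fold higher odds. If the wild-type reads are shared, an error in them at site b would move its estimates in opposite directions, and the size of that error was not tested. With 0.94 as the error, the 95% interval of the sum at site b runs from -2.32 to 1.37.

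The single OPCML mutant, a T-to-C change, stood at 2.32 ± 0.68 over wild-type sequence in the authors' deposited table, 10.2-fold higher odds with an interval of 2.67- to 38.8-fold (adjusted p = 0.00175). It ranked 18 from the highest among 1025 mutants, directly after the PMP22 mutant of site b at 17 and directly before a NECAB1 mutant at 19. With 1 mutant in this region there is no neighbouring site to set it against, and the comparison of wild-type with scrambled sequence lists no OPCML construct.

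Across the long NECAB1 region the estimates differed between tested sites, and 2 of 5 mutants were called, both higher. The T-to-A mutant at site c reached 2.17 ± 0.41 in the authors' deposited table, 8.75-fold higher odds with an interval of 3.95- to 19.4-fold (adjusted p = 5.89e-07). An insertion at site d, 70 bp from site c, gave 0.48 ± 0.12 in the authors' deposited table, 1.61-fold (adjusted p = 0.00015). The interval at site c, from 1.37 to 2.96, lay above that at site d, from 0.25 to 0.71. The remaining NECAB1 mutants were not called in the authors' deposited table, a C-to-T change at site a at 0.16 ± 0.23 and G-to-A changes at sites b and e at -0.33 ± 0.38 and -0.07 ± 0.12. The intervals ran from -0.28 to 0.61 at site a, from -1.08 to 0.43 at site b and from -0.30 to 0.17 at site e, so site b was the least precise of them.

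Wild-type NECAB1 constructs stood on both sides of scrambled sequence. The counterpart of site a was called lower at -0.48 ± 0.20 in the authors' deposited table, an odds ratio of 0.617 (adjusted p = 0.0278), and that of site e, 3268 bp away, was called higher at 0.38 ± 0.12, 1.46-fold (adjusted p = 0.00479). The counterpart of site d stood at -0.19 ± 0.10 and that of site c at 0.07 ± 0.65 in the authors' deposited table, neither of them called (adjusted p = 0.0654 and 0.927). The error at site c was among the largest of the wild-type table, ranking 347 of 358 from the smallest. By the sum of the deposited estimates the site c mutant stood at 2.24 over scrambled sequence, or 9.42-fold higher odds. If the deposited errors are right, the standard error of this sum is at most 0.77. With that error its 95% interval ran from 0.74 to 3.74. The sums at sites a, d and e were -0.32, 0.28 and 0.31 in the authors' deposited tables, with standard errors of at most 0.30, 0.15 and 0.17. With those errors their intervals included 0, but at sites d and e by so little, with lower ends of -0.014 and -0.027, that a smaller error could exclude it.

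Over the 5 regions, the authors' deposited table called 9 of 16 mutants higher, 3 lower and 4 neither, or 75% called, beside 56.6% over all mutants (29.5% higher and 27.1% lower). All 3 lower calls belonged to UNC13A, and the regions at PTPRN2, PMP22, OPCML and NECAB1 gave higher calls only. For wild-type constructs the authors' deposited table had 2 higher calls, 2 lower calls and 2 without a call among 6, or 66.7% called, beside 62.3% over all wild-type constructs (34.1% higher and 28.2% lower). Because the regions were picked for such values, nothing is read from these shares. The median size of the mutant estimates was 0.25 over the 5 regions and 0.31 over the whole of the authors' deposited table, so the median mutant here was smaller than that of all mutants.

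The large estimates were also the imprecise ones. The mutants at PMP22 site b, OPCML and NECAB1 site c, which exceed 2 in size, had standard errors ranking 1001, 999 and 967 of 1025 from the smallest in the authors' deposited table. This was common to the table: the 30 mutants with estimates between 2 and 10 in size, all called, had a median standard error of 0.56 against 0.12 over all mutants. In contrast, the UNC13A mutant at site c combined a 2.77-fold fall in odds with an error at the middle of the table, ranking 489. The order of these 3 mutants cannot be read from the authors' deposited table, since their estimates of 2.36, 2.32 and 2.17 lie within 1 standard error of each other.

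At an adjusted p under 0.01, 8 of the 12 mutant calls and 3 of the 4 wild-type calls remained. Over all constructs, 492 of 580 mutant calls and 175 of 223 wild-type calls did. Bonferroni adjustment over each table kept 4 of the 12 mutant calls, UNC13A site c, PTPRN2 site a and NECAB1 sites c and d, and both PMP22 wild-type calls, while the PMP22 and OPCML mutants with the highest estimates were lost. Over all constructs it kept 306 mutant and 120 wild-type calls. The z values of the authors' deposited tables spread widely, with robust SDs of 3.92 for mutants and 4.12 for wild-type constructs where a model with no effects would give 1. With z divided by that spread 0 constructs of the 5 regions were called, and 2 mutants and 4 wild-type constructs over the whole tables. Real effects would also widen the spread, so this scaling cannot decide whether a call is real.

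The kinds of change were mixed. In the authors' deposited table all 4 A-to-G mutants of the 5 regions were called higher, 3 at PTPRN2 and 1 at PMP22, while of all 180 A-to-G mutants 52 were called higher and 53 lower. T-to-G changes, 2 at PTPRN2 and 1 at PMP22, gave 2 higher calls of 3, against 18 higher and 17 lower among all 61 in the authors' deposited table. Neither G-to-A change, both at NECAB1, was called, and neither was the C-to-T change there, while 62 of all 109 G-to-A and 53 of all 99 C-to-T mutants were called in the authors' deposited table.

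Constructs of other genes from a list of 110 neuronal genes (synaptic release, dense-core vesicles, myelin, adhesion, calcium binding, channels and general markers, the members included) were few. They lay at 5 genes in the mutant table, where 4 of 8 were called higher and 2 lower, beside 29.5% higher and 27.1% lower over all mutants. In the wild-type table they lay at 2 genes, where 1 of 2 was called, lower, beside 62.3% called over all wild-type constructs. With so few constructs, nothing is read from these counts. For HPCAL1, which encodes a neuronal calcium sensor family protein, 3 of 3 mutants passed, at 0.31 ± 0.03, 0.12 ± 0.02 and -0.09 ± 0.02 in the authors' deposited table, in a short region inside the gene (chr2:10344802-10345000). The HPCAL1 errors, like those at PTPRN2 sites c, d and e, were far below the table's median of 0.12. The region inside GRIN2A, an NMDA receptor subunit gene, spans chr16:10126499-10127481. Its mutant passed in the higher direction with 0.40 ± 0.09 (adjusted p = 5e-05 in the authors' deposited table), and its wild-type counterpart was at 0.41 ± 0.24, not called (adjusted p = 0.125). Among sodium channel genes, the authors' deposited table gave a higher call inside SCN2A, at 0.85 ± 0.24, and a lower call 25438 bp from SCN3A, at -1.77 ± 0.38, beside an uncalled SCN3A mutant at -0.09 ± 0.29. A mutant inside NCAM1, a neural adhesion gene, stood at 0.50 ± 0.46 and was not called either. The wild-type construct inside SCN9A was called lower at -1.40 ± 0.20 in the authors' deposited table. No direction was shared over these genes.

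Of the 6 sites of these regions measured in both tables, those called in both were the 2 at PMP22. Among 128 constructs of other regions called in both, the one nearest in its pair of estimates to PMP22 site b lay inside the zinc finger gene ZNF577 (chr19:51860243-51863236), with -2.79 ± 0.55 for wild-type against scrambled and 2.87 ± 0.61 for mutant against wild-type in the authors' deposited tables, at a Euclidean distance of 0.52. The one nearest to PMP22 site a lay 12 bp from P2RY8, a purinergic receptor family gene, with 0.78 ± 0.12 and 0.40 ± 0.18 in the authors' deposited tables, at a distance of 0.22. These distances take no account of the errors. At PMP22 site b the distance was smaller than either error of that site, 0.65 and 0.68, so which construct is truly nearest cannot be told. Whether wild-type reads are shared between the tables was not tested for these pairs or for those at PMP22.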

How the data were processed

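The lentiMPRA was run in C4-2B cells, and the analysis began from 2 tables of comparisons. Per the file headers, the estimate comes from a logit fit, and it is taken as a natural log odds ratio; the authors deposited beside it a z value, which is a score, a p-value and a q-value. The submitters' processing notes name Bowtie2 and the build hg38 but give neither a role. Not given in the sources used here are the barcode filters, the construct length, the scrambled sequence and the exact model. Direction was read from the way the tables are named. Standard errors are the estimate divided by z, and 95% intervals are normal. Benjamini-Hochberg adjustment, tested on simulated z values, gave back the deposited q-values when run over each table. With no counts, depth is unknown. Starts were raised by 1 base. Genes came from RefSeq GRCh38.p14 (20056 protein-coding genes), by overlap and otherwise the nearest gene body. The error of a sum is bounded by taking the tables as independent, since wild-type reads, if shared, would lower it. This bound holds only if the deposited errors are right, which was not tested. Exact mutated positions are not printed.

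The text names every construct of the 5 regions, called constructs of the neuronal list and the nearest construct called in both tables; the uncalled GRIN2A, SCN3A and NCAM1 constructs were added after their values were seen. The members and lists were chosen with earlier results of these data known. Alternatives were a threshold of 0.01, Bonferroni adjustment, z scaled by its robust SD, leaving out estimates beyond 10 in size, and gene assignment by overlap only. Python 3.11.15, pandas 2.3.3 and scipy 1.17.1 were used.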

Additional observations from a re-analysis of the deposited data

How the results depend on the processing

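At an adjusted p under 0.01, 8 mutant and 3 wild-type constructs of the 5 regions were called, against 12 and 4 at 0.05. Bonferroni adjustment left 4 and 2 of them, and 306 mutant and 120 wild-type calls over the whole tables. With z scaled by its robust SD, 0 mutant and 0 wild-type constructs of the regions were called after Benjamini-Hochberg adjustment, with 1 and 0 at an unadjusted p under 0.05, and the whole tables held 2 and 4 calls. The cause of the wide spread of z was not tested, and real effects would widen it too, so the scaled counts cannot decide whether a call is real. Leaving out estimates beyond 10 in size changed the call of 0 of the 22 single constructs, and assigning genes by overlap only left 5 mutant calls and 1 wild-type call among other neuronal genes, against 6 and 1. No alternative could change an estimate or its direction, since each reused the deposited estimates, so their constancy is no support for them. No paired analysis was possible because the tables carry no values per replicate, and leaving out a replicate could not be done for the same reason. The unknown barcode and read numbers limit what the errors can be checked against.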
